A study of Mus musculus with 18 samples.

Results

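The ligands, antagonists and co-receptor examined here were Nodal, Lefty1, Lefty2, Tdgf1, Bmp2, Bmp4, Bmp5, Bmp6 and Bmp7, 9 of 21631 protein-coding genes. They were chosen by name as genes of the Nodal, Lefty and BMP signalling system. Each was read in 3 regions of the GRCm38 RefSeq annotation: the promoter (1 kb on either side of the start site), the gene body, and the 10 kb flanks on both sides. The assay was chromatin immunoprecipitation followed by sequencing in the E14 line of mouse embryonic stem cells, grown on gelatin in 2i/LIF medium, in which LIF and blockers of the kinases GSK3 and MEK hold the cells undifferentiated. All groups shared that line and medium, which carried light or isotope-labelled arginine and lysine. Of 18 libraries, 10 came from untreated cells with no spike-in, 2 for each of 5 marks: the 3 methylation states of H3K27, H3K36me2 and H3K36me3. The remaining 8 were quantitative: H3K27me3 or H3K36me2, 2 libraries each, after 7 days of 10 µM EPZ-6438, which blocks EZH2, the catalytic subunit of the Polycomb complex PRC2, or after 7 days of its solvent DMSO. Drosophila S2 chromatin, 0.05% of the total, was added to these 8 as a spike-in.

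Nodal signals through activin receptors and SMAD proteins, needs the membrane-anchored co-receptor encoded by Tdgf1 (Cripto), and is held in check by the secreted Lefty proteins, whose genes it switches on. BMP ligands drive, among other steps, mesoderm and germ cell formation, and LIF and BMP4 were long used together to keep mouse embryonic stem cells undifferentiated. H3K27me3 is placed by PRC2 at silent developmental genes, H3K36me3 lies over the bodies of transcribed genes, and H3K36me2 covers broad intergenic and genic stretches. PRC2 acts poorly on nucleosomes that carry H3K36 methylation.

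Levels in untreated cells are given as the mean read number per 1 kb window in a region divided by the mean of the same library over the autosomes and X, so that 1 is the library's own average. Windows overlap their neighbours, so reads in a region are sums over windows divided by 2. The start sites of Lefty1, Lefty2, Bmp2 and Bmp7 were taken at the gene end given by general knowledge of their strand, since the promoter table used here holds the other 5. Lefty1 and Lefty2 are close copies that lie next to each other on chromosome 1. How reads that match both were placed is not given in the sources used here, so their separate levels are uncertain. Where 2 marks occur at the same gene, their presence on the same or on different chromatin copies cannot be told apart in such bulk samples. Likewise, a mark carried by fewer cells and a lower amount per cell cannot be told apart.

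Library totals, as reads in non-overlapping windows, ranged from 22935044 to 67464843 in the untreated libraries and from 21570141 to 111758166 in the quantitative ones, apart from H3K27me3 after the inhibitor, which held 991909 and 1777232. Between replicate libraries the chi-square over gene bodies was 2.05 to 19.5 per degree of freedom, above counting noise. Replicates of 1 group are not stated to be separate cultures, so p-values measure the spread between these libraries only. The labelled cell type was checked on marker genes, by chromatin only, since no RNA was measured. The H3K36me3 level over gene bodies had a median of 6.31 for 8 genes of pluripotent cells, against 1.24 for 5 endoderm, 0.937 for 5 neural and 1.12 for 5 fibroblast markers and 1.76 for all protein-coding genes. Of the pluripotency genes, Dppa5a had a low H3K36me3 level and the Esrrb promoter carried H3K27me3, at 6.56, where the median of 7 was 0.0804.

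In untreated cells the 9 genes fell into 3 kinds. Nodal and its co-receptor gene Tdgf1 had almost no H3K27me3 and high H3K36me3 over their bodies. Lefty1, Lefty2, Bmp2, Bmp4, Bmp6 and Bmp7 had H3K27me3 over the promoter. Bmp5 lay below its library's mean at promoter and body for each of the 5 marks. The promoter of 6 of 9 genes lay in one of the authors' H3K27me3 peaks with at least 50% of its bases, where 30.6% of 17278 protein-coding promoters did. Of gene bodies, 6 of 9 did, against 27.4% of all.

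**Figure D1:**
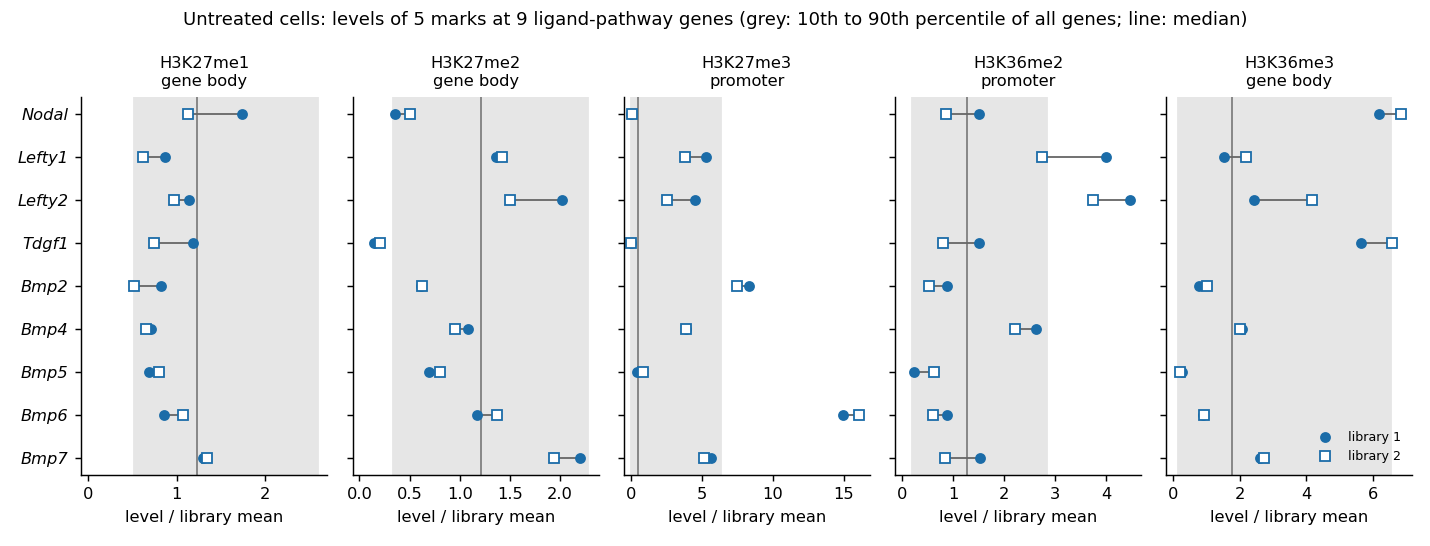
Untreated levels of 5 marks, each relative to its library's mean, at the promoter (H3K27me3, H3K36me2) or over the gene body (H3K27me1, H3K27me2, H3K36me3) of the 9 genes; circles and squares are the 2 libraries, the grey band spans the 10th to 90th percentile of all protein-coding genes and the line is their median. Bmp6 stands furthest right for H3K27me3 at 15.0 and 16.03, and Nodal and Tdgf1 stand furthest right for H3K36me3.

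Nodal (chr10:61417972-61425338, plus strand) encodes the TGF-beta family ligand that specifies mesendoderm and left-right asymmetry. Its promoter held 0 and 1.5 H3K27me3 reads in the 2 untreated libraries, a level of 0 and 0.0703. Over its body, H3K36me3 stood at 6.18 and 6.85, the 89.9th percentile of protein-coding genes, and it was highest, at 12.8 and 14.2, in a window 7.53 kb past the start. That window spans the annotated end of Nodal, on the side where Eif4ebp2, the gene of a translation repressor, reaches into the flank. H3K36me2 was 1.51 and 0.859 at the promoter. A deposited H3K36me2 peak of 276 kb (chr10:61145501-61421500) came from upstream and ended inside the gene, covering 100% of the promoter and 47.9% of the body. H3K27me1 peaks covered 72.5% of the body, with levels of 1.73 and 1.13.

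Tdgf1 (chr9:110939608-110946158, minus strand) encodes Cripto, without which Nodal cannot bind its receptors well. Its promoter held 1 H3K27me3 read in each untreated library, and its body level was 0.0603 and 0.0865. H3K36me3 over the body was 5.64 and 6.57, the 88.1st percentile, highest 4.16 kb past the start at 10.46 and 12.6. H3K36me2 peaks covered 32.9% of the promoter and 0% of the body. Over 30 values (10 untreated libraries in 3 regions, on a log2 scale), Tdgf1 was the member nearest to Nodal, at a Euclidean distance of 3.17, where the other 7 lay between 11.5 and 13.4 from it.

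Lefty1 (chr1:180935022-180938401) and Lefty2 (chr1:180893108-180899107) encode secreted antagonists that block Nodal and its co-receptor. The Lefty1 promoter had H3K27me3 levels of 5.31 and 3.80, and the Lefty2 promoter 4.55 and 2.55. Both libraries of both genes were above the median of 0.477 over all promoters. H3K36me2 was also high there, 4.00 and 2.74 at Lefty1 and 4.47 and 3.75 at Lefty2, the 94.9th and 98.3rd percentiles. Both promoters lay entirely in deposited peaks of H3K27me3, H3K27me2 and H3K36me2. Over the body, H3K36me3 was 1.52 and 2.18 at Lefty1 and 2.43 and 4.16 at Lefty2.

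The highest H3K27me3 around Lefty1 was not at its promoter but 6.48 kb past the start, at 10.7 and 9.56, beyond the gene's annotated end and toward Tmem63a, a membrane channel gene that reaches into that flank. At Lefty2 the highest window lay 0.393 kb past the start, at 5.18 and 2.91. In the 10 kb flanks the Lefty1 level was 4.05 and 3.36 and the Lefty2 level 1.08 and 0.635. Of the 30 untreated values, Lefty1 lay nearer to Bmp7 (a distance of 3.24) and Bmp4 (3.29) than to Lefty2 (4.11).

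The BMP genes covered the widest range of H3K27me3. Bmp6 (chr13:38345716-38500314, plus strand), a ligand known from iron balance and bone, had promoter levels of 15.0 and 16.03 (381.5 and 342 reads), which ranked 63 of 17278 promoters. Bmp2 (chr2:133552159-133562896), which acts in heart and bone formation, had 8.31 and 7.50, the 93.1st percentile. Bmp7 (chr2:172868012-172940321), a ligand of kidney and eye development, had 5.67 and 5.16. Bmp4 (chr14:46383525-46390669, minus strand), which acts in mesoderm and germ cell formation, had 3.902 and 3.87. Bmp5 (chr9:75775365-75900316, plus strand), a ligand of skeletal patterning, had 0.471 and 0.891. The values of Bmp6, Bmp2 and Bmp7 did not overlap with one another, and those of Bmp4 lay between the 2 libraries of Lefty1 and of Lefty2.

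The shape of the signal differed between these genes. At Bmp6 a single sharp summit stood 0.285 kb past the start at 18.5 and 19.3, and the stretch above 2 times the library mean ran 8.50 kb. The mark was not confined to that stretch, since deposited H3K27me3 peaks of up to 48 kb covered 81.0% of the Bmp6 body. Beyond the first 10 kb of the gene its level was 2.82 and 2.68, beside 2.93 and 2.67 at Bmp7. At Bmp2 the summit stood 2.34 kb past the start at 13.2 and 10.9, in a stretch of 7.50 kb. At Bmp4 it stood 1.17 kb past the start at 8.79 and 9.09, in a stretch of 3 kb. At Bmp7 the stretch was 26.0 kb wide, with several summits, inside a deposited peak of 89.5 kb (chr2:172877501-172967000). Bmp5 had no such stretch at its start. Its highest H3K27me3 window was 11.6 kb into the gene, at 5.18 and 4.50, inside a deposited peak of 6.50 kb (chr9:75781501-75788000) that left the promoter uncovered.

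**Figure D2:**
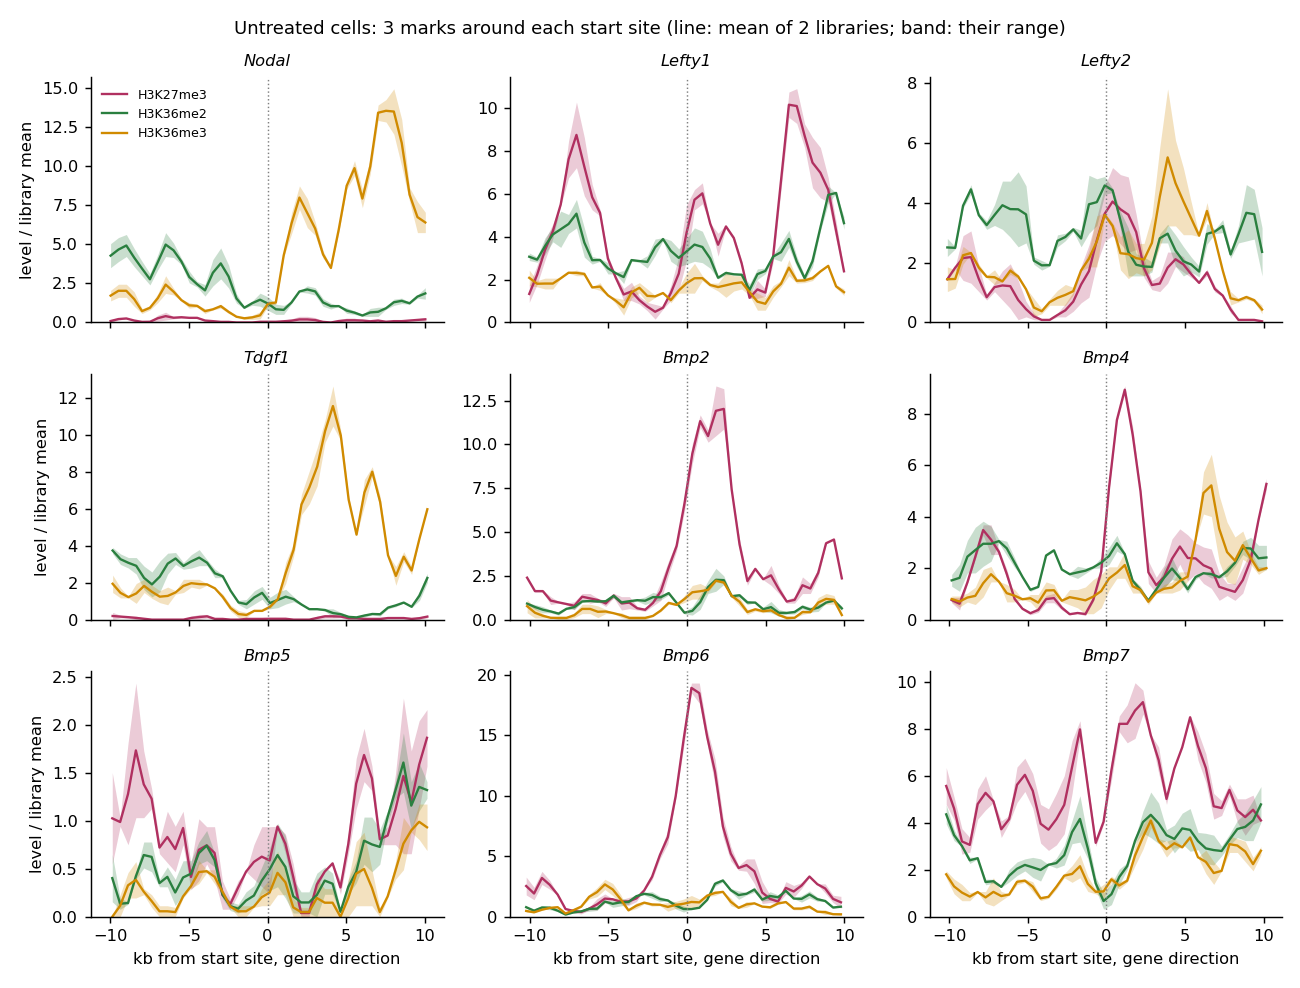
H3K27me3, H3K36me2 and H3K36me3 levels relative to the library mean in untreated cells, by distance from the start site in the direction of the gene, for the 9 genes (line, mean of 2 libraries; band, their range; vertical axes differ between panels). H3K27me3 makes a sharp summit at Bmp6, Bmp2 and Bmp4 and a broad one at Bmp7, and stays near 0 at Nodal and Tdgf1, where H3K36me3 rises past the start.

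H3K36me2 split the genes with promoter H3K27me3. Bmp2 and Bmp6 had low H3K36me2 at the promoter, 0.888 and 0.535 and then 0.878 and 0.600, below the all-promoter median of 1.27, and no H3K36me2 peak there. Bmp4 had 2.63 and 2.22, the 84.3rd percentile. Bmp7 had 1.53 and 0.843 at the promoter but 3.93 and 3.25 over its body, the 97.1st percentile, where a deposited H3K36me2 peak of 203.5 kb (chr2:172751001-172954500) spanned the whole gene and overlapped its H3K27me3 peak. In all, 5 of 9 promoters lay in an H3K36me2 peak, against 50.0% of promoters, and 5 of 9 bodies, against 47.8%. The 5 promoters were those of Nodal, Lefty1, Lefty2, Bmp4 and Bmp7.

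Of the other 2 states of H3K27, the promoters of 3 of 9 genes, Lefty1, Lefty2 and Bmp7, lay in an H3K27me2 peak, against 30.3% of promoters. None of the 9 (0) lay in an H3K27me1 peak, against 25.6%. At the Bmp6 promoter H3K27me2 was 0.322 and 0.419, and H3K27me1 was 0.905 and 0.332. The 2 libraries of H3K27me1 were far apart at the Bmp2 promoter, with 1.86 and 0.226.

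RefSeq promoter sequences (GRCm38.p6, 250 bases before to 50 after the start, 300 bases) were matched for 5 of the 9 genes: Nodal, Tdgf1, Bmp4, Bmp5 and Bmp6. Of these, 4 are shown: Bmp6, with the highest promoter H3K27me3, then Bmp4, and then Nodal and Bmp5, whose promoters lay in no H3K27me3 peak. Tdgf1, with almost no H3K27me3 like Nodal, is not printed. CG dinucleotides, the feature by which Polycomb-bound promoters are usually described, are in capitals. The 4 windows, read 5′ to 3′ on the gene's strand, were chr13:38345466-38345765 (plus) for Bmp6, chr14:46390620-46390919 (minus) for Bmp4, chr10:61417722-61418021 (plus) for Nodal and chr9:75775115-75775414 (plus) for Bmp5.
Bmp6: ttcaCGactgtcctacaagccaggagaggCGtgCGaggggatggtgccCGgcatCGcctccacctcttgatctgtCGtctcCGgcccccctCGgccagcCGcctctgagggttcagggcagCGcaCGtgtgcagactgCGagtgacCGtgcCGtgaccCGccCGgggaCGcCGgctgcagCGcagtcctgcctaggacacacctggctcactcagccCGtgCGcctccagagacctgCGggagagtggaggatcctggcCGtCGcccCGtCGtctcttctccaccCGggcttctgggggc
Bmp4: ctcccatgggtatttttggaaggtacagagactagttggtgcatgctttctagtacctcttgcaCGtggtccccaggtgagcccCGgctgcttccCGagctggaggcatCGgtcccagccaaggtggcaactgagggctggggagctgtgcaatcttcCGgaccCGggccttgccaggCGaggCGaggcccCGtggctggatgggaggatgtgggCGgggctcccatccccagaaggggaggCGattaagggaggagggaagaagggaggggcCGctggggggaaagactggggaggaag
Nodal: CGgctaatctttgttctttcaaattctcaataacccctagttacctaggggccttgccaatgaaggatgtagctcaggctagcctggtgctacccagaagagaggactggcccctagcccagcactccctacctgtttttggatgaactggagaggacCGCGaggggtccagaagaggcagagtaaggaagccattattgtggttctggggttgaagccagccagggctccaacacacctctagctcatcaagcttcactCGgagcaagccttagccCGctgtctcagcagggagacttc
Bmp5: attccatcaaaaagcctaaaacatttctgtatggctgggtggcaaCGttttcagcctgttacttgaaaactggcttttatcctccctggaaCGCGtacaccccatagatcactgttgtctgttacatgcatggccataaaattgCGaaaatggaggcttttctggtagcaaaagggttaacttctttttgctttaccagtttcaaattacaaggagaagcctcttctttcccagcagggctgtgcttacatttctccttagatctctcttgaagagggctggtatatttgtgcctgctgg

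Bmp6, with the highest H3K27me3 of the 9, had 27 CG dinucleotides in its window, the 80.5th percentile of 17274 promoters, whose median was 14. Bmp4 had 12, Tdgf1 7, Nodal 5 and Bmp5 4. Of the 5 windows read, the one of Bmp6 alone exceeded the median. The SMAD motif CAGAC, searched on both strands, was found 1 time each in Bmp6, Bmp5 and Tdgf1 and 0 times in Nodal and Bmp4, and 48.6% of all promoters held it. The FOXH1 motif AATCCACA was in 0 of the 5 windows and in 0.782% of all promoters, and TATAAA was in 0 of the 5 and in 13.4% of all.

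After DMSO the 6 marked promoters stood in the same order of mean H3K27me3 as in untreated cells. Relative levels after DMSO were 22.5 and 23.3 at Bmp6, 12.1 and 11.6 at Bmp2, 9.61 and 10.2 at Bmp7, 5.62 and 6.68 at Lefty1, 4.43 and 6.28 at Lefty2, and 6.07 and 4.93 at Bmp4. Bmp6 ranked 75 of 17278 promoters. Bmp5 stood at 0.488 and 0.354. Nodal and Tdgf1 stayed at or below 0.330.

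The question of the inhibitor comparison was how far H3K27me3 is lost from each gene when EZH2 is blocked. The mean over the genome, in spike-in scaled reads per window, was 48.7 and 35.7 after DMSO and 0.0912 and 0.0668 after the inhibitor, a 534-fold difference. With limma on log2(mean scaled reads + 1) and Benjamini-Hochberg adjustment over all genes tested, H3K27me3 fell at the promoters of 7 of the 8 genes that passed the filter of 10 reads, against 99.5% of promoters tested. It fell over the bodies of 9 of 9 genes, against 99.9%, and in the flanks of 9 of 9, against 100% at this rounding (21190 of 21193). These counts are near those of the genome and say nothing particular of the members. Tdgf1 did not pass the filter at its promoter, with 1.5 and 7 reads after DMSO and 0 in both inhibitor libraries, too few to give a fold.

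Among the 6 marked promoters the levels left after the inhibitor differed widely. At Bmp6 the promoter level was 1096 and 833 scaled reads per window with DMSO, then 4.42 and 5.69 with the inhibitor. At Bmp2 it was 590 and 414, then 1.81 and 1.63. At Bmp7 it was 468 and 366, then 0.242 and 0.223. No library of either arm overlapped with the other arm at any of these 3 genes. The fold difference was 191 at Bmp6 and 291 at Bmp2, both smaller than that of the genome, and 1794 at Bmp7, which was larger.

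The Lefty1 promoter had 273 and 238 after DMSO, then 0.121 and 0.347, a 1095-fold difference. Lefty2 had 215 and 224, then 0.182 and 0.149, a 1332-fold difference. Bmp4 had 296 and 176, then 0.121 and 0.297, a 1129-fold difference. These 3 rest on few reads, 8, 4.5 and 7 over both inhibitor libraries, and Bmp7 on 6.5. Bmp6 had 36.5 and 115 reads there and Bmp2 15 and 33. Relative to the library mean, Lefty1, Lefty2, Bmp4 and Bmp7 stood at 2.11 to 3.26 after the inhibitor. The 10th to 90th percentile of all promoters then ran from 0 to 4.95, so these 4 lay within the range of ordinary promoters. Their folds thus set a DMSO level against a level shared with most promoters.

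The limma log2 differences, which the added 1 compresses for levels below 1, were -7.31 (SE 0.31) for Bmp6, -7.51 (0.31) for Bmp2, -7.70 (0.29) for Lefty1, -7.57 (0.28) for Lefty2, -7.57 (0.35) for Bmp4, -8.39 (0.29) for Bmp7 and -4.14 (0.37) for Bmp5, with limma adjusted p from 8.00e-07 to 2.02e-05. The median over all promoters was -5.34. The Bmp5 value rests on 0.5 reads in each inhibitor library. The added 1 also narrows the spread between inhibitor libraries at levels below 1, so the p-values give that spread little weight there. Nodal, at -1.62 (SE 1.06), did not pass (limma adjusted p = 0.174). Its promoter held 0 and 7 reads with DMSO, then 3 and 0 with the inhibitor, too few to give a fold. Its size and direction changed with 1 library: without DMSO library 1 it was -3.45, without inhibitor library 1 -1.84 and without DMSO library 2 0.22. Each of these fits leaves 1 library in an arm, so no call is drawn from them. Over the bodies, where Nodal and Tdgf1 passed, the log2 differences were -3.07 and -3.03, against a median of -4.88 over all genes. Both rest on 19 reads or fewer in each library.

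**Figure D3:**
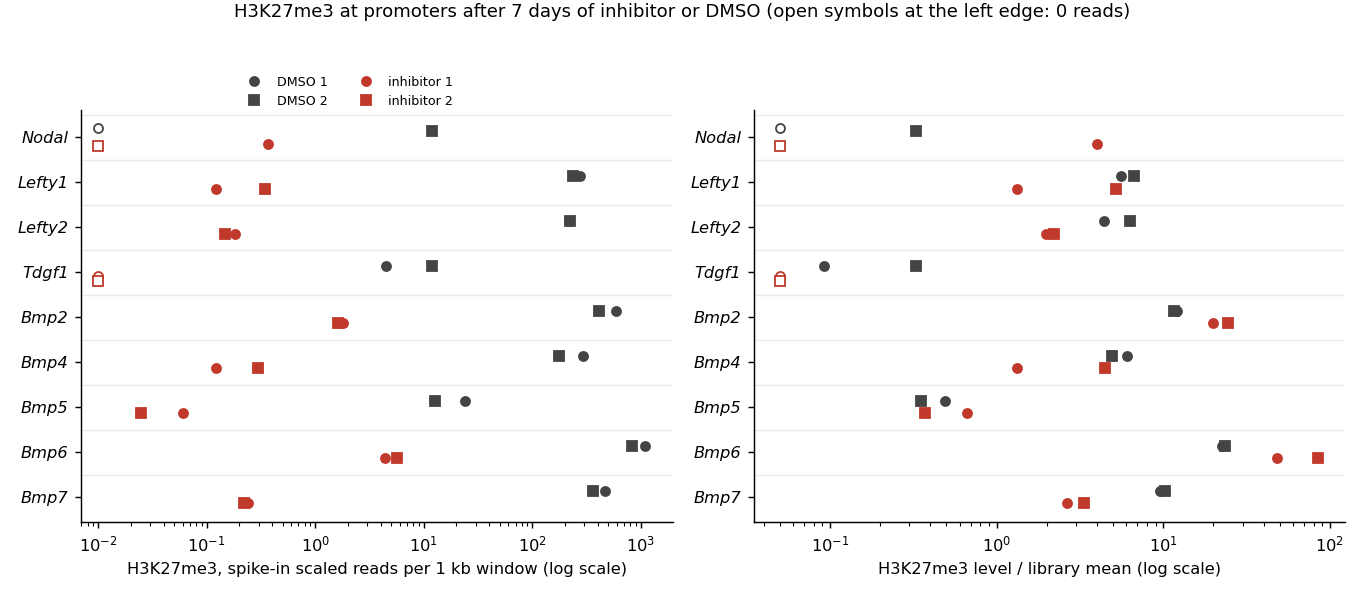
H3K27me3 at the 9 promoters in each quantitative library after DMSO (grey) or inhibitor (red), as spike-in scaled reads per window on the left and relative to the library's own mean on the right, both on log axes; open symbols at the left edge mark 0 reads. On the left every marked gene moves down by more than 100-fold, and on the right the inhibitor libraries lie above the DMSO libraries at Bmp6 and Bmp2 and below them at Lefty1, Lefty2, Bmp4 and Bmp7.

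A level relative to the library's own mean does not depend on the spike-in factor and shows how the remaining signal was shared out. At the Bmp6 promoter it was 48.4 and 85.2 after the inhibitor, above both DMSO libraries, and at Bmp2 it was 19.9 and 24.4, also above both. At Bmp7 it was 2.65 and 3.33, at Lefty2 1.99 and 2.22, at Lefty1 1.33 and 5.19 and at Bmp4 1.33 and 4.44, each below both DMSO libraries. The median over all promoters was 0.667 after DMSO and 1.81 after the inhibitor, so these 4 came nearer to it, from the 56.8th percentile at Lefty2 to the 76.7th at Lefty1. An exact two-sided permutation test over 2 against 2 libraries cannot go below 0.333, which was its value at each of these 6 promoters. At Bmp5 and Nodal the arms overlapped, and at Tdgf1 both inhibitor libraries were at 0. With limma on the same relative scale, 0 of 8 tested members passed in either direction, against 8.59% of promoters. The log2 differences were 1.48 (SE 0.48) at Bmp6 (limma adjusted p = 0.142), 0.89 (0.38) at Bmp2 (0.218) and -1.72 (0.38) at Bmp7 (0.0793), and -1.15 to -1.31 at Bmp4, Lefty1 and Lefty2 (0.138 to 0.395). Raw limma p was under 0.05 at Bmp6, Lefty2 and Bmp7 among the 8 tested, and at 4678 of 14138 promoters, a share near that of the members. At Lefty1 and Bmp4 the size rests on the inhibitor library used: with inhibitor library 1 alone the relative log2 differences were -2.21 and -2.05, and with library 2 alone -0.25 and -0.31.

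The 2 marked promoters with higher relative levels after the inhibitor, Bmp2 and Bmp6, were those outside H3K36me2 peaks in untreated cells, and the 4 with lower ones were inside. By level the split was less clear, since the mean H3K36me2 of the Bmp7 promoter, 1.19, was also below the all-promoter median of 1.27. Bmp2 and Bmp6 also had the highest promoter H3K27me3 in untreated cells, at 7.91 and 15.5. The other 4 were at 5.41 or lower. By level, untreated promoter H3K27me2 split them likewise, at 0.371 for Bmp6 and 0.463 for Bmp2 against 1.13 to 1.99 for the other 4. These traits give the same grouping and cannot be told apart here. This grouping was seen in the values, covers 6 genes, and was not tested. Among all promoters Bmp6 ranked 75 after DMSO and 80 after the inhibitor, Bmp2 945 and 360, and Bmp7 1285 and 4676.

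At Bmp6 and Bmp2 a larger share of the remaining reads lay near the start site than after DMSO, and at Bmp2 this was most of them. Of H3K27me3 reads in the gene and its flanks, the share within 2.5 kb of the start was 16.8% and 17.1% after DMSO and 31.8% and 52.5% after the inhibitor at Bmp6, and 49.5% and 48.6%, then 78.1% and 85.1%, at Bmp2. At Bmp7 it was 15.2% and 15.97%, then 7.47% and 7.94%. At Bmp4 (17.6% and 51.9% after the inhibitor) and Lefty1 (14.3% and 40.7%) the inhibitor libraries lay on either side of the DMSO values. At Lefty2 both were below, at 8.82% and 34.2% against 39.0% and 43.2%. Several inhibitor shares rest on few reads near the start: 1.5 and 12.5 at Lefty2, 6.5 and 11 at Bmp7, 3.5 and 17.5 at Lefty1 and 3 and 13.5 at Bmp4, beside 54 and 153.5 at Bmp6 and 28.5 and 74.5 at Bmp2. Within Bmp6 the first 10 kb had a relative level of 16.4 ± 3.70 (SD, n = 2) after the inhibitor and 7.34 ± 0.34 after DMSO, while the rest of the gene had 1.48 ± 0.40 and 2.41 ± 0.011. Within Bmp7 the first 10 kb had 2.53 ± 0.20 and 8.09 ± 0.23, and the rest 2.56 ± 0.13 and 2.94 ± 0.033.

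**Figure D4:**
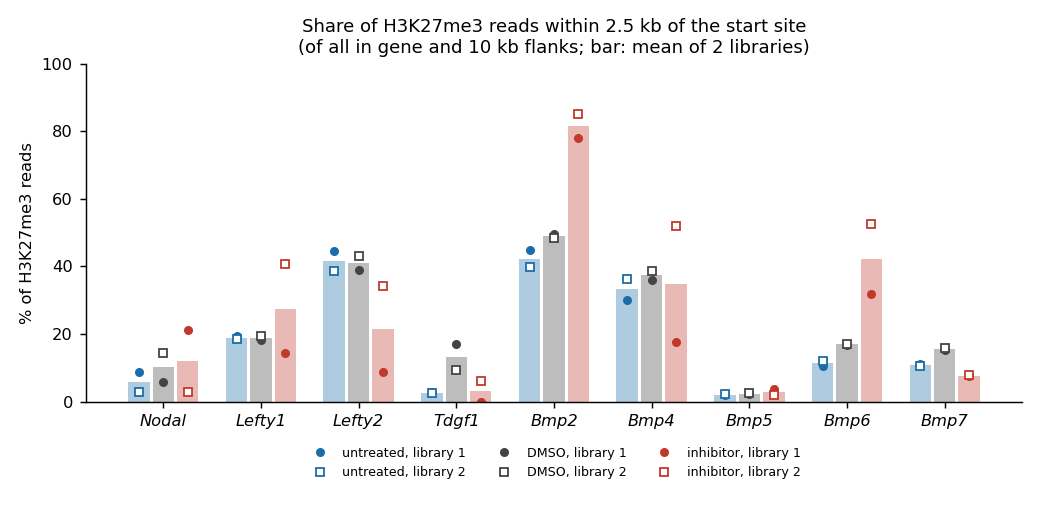
Share of the H3K27me3 reads of each gene and its 10 kb flanks that lay within 2.5 kb of the start site in untreated, DMSO and inhibitor libraries (bars, mean of 2 libraries; symbols, single libraries). Both inhibitor libraries exceed both DMSO libraries at Bmp2 and Bmp6 and lie below them at Bmp7, Lefty2 and Tdgf1, the last from 1.5 inhibitor reads near the start.

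On the relative scale 1 of 9 bodies was higher by limma, that of Tdgf1, against 36.5% of bodies, and 0 of 9 were lower, against 9.33%. The Tdgf1 body stood at 0.244 and 0.145 after DMSO and 1.02 and 1.37 after the inhibitor, a log2 difference of 2.38 (SE 0.31, limma adjusted p = 0.0113), from 8.5 reads in the 2 inhibitor libraries. In the flanks 2 of 9 were higher, against 20.8%: Nodal, at 2.89 (SE 0.26, limma adjusted p = 0.0119), and Tdgf1, at 2.30 (SE 0.28, 0.0123). In the flanks 2 of 9 were lower, against 4.54%: Lefty1, at -0.996 (SE 0.23, limma adjusted p = 0.0408), and Bmp7, at -1.29 (SE 0.32, 0.0468). The median log2 difference over all genes moved from -4.88 on the spike-in scale to 0.38 on the relative scale for bodies and from -5.12 to 0.17 for flanks. The signs of Nodal and Tdgf1 therefore differ between the scales, and both genes remained far below their DMSO level on the spike-in scale.

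H3K36me2 was measured in the same arms. Its means over the genome were 324 and 213 scaled reads per window with DMSO and 404 and 227 with the inhibitor, so the arms overlapped and library 1 was the higher in each. Without a replicate block, whose effect is given in the closing section, none of the 9 genes (0) passed limma in any region. Over all genes 0.347% passed at promoters, 0.328% over bodies and 0% in flanks. At an unadjusted p under 0.05 also 0 members passed, and limma-voom on the recovered reads called 0. Over all genes, 420 of 16716 promoters, 467 of 21006 bodies and 169 of 21306 flanks had an unadjusted p under 0.05. Among them all, limma-voom called 0 promoters, 1 body and 0 flanks.

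Bmp5, which began lowest, had the largest positive differences of the 9 at the promoter and over the body. Its promoter held 83.3 and 61.1 scaled reads with DMSO, then 224 and 103 with the inhibitor, which do not overlap, a log2 difference of 1.08 (SE 0.57, limma adjusted p = 1.00). Over its 125 kb body the values were 144 and 98.2, then 277 and 141, with the second inhibitor library just under the first DMSO library, a difference of 0.73 (SE 0.51). Bmp2 had 245 and 151 over its body, then 337 and 229, a difference of 0.53, and 0.72 in its flanks, where Bmp5 had 0.70. With 1 library left out in turn these differences ranged from 0.52 to 1.63 at the Bmp5 promoter, 0.24 to 1.21 over its body and 0.066 to 1.33 in its flanks, and from 0.18 to 0.88 over the Bmp2 body and 0.28 to 1.17 in its flanks. The lowest value came without inhibitor library 1, except over the Bmp2 body (without DMSO library 2), and the highest without inhibitor library 2, except there (without DMSO library 1). Bmp6 had 485 and 317, then 711 and 382, a difference of 0.41 over its body. With 1 library left out in turn that difference ranged from -0.039 to 0.86, so its direction turned. The Bmp6 promoter stood at 260 and 211, then 283 and 210. At that promoter, where H3K27me3 fell, H3K36me2 differed by 0.06 (SE 0.57) on the log2 scale, less than the spread of libraries.

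At the genes already high in H3K36me2 the arms overlapped or differed by less than the standard error. Lefty1 had 1136 and 606 at the promoter after DMSO and 1102 and 734 after the inhibitor. Lefty2 had 801 and 584 over the body, then 730 and 499.1, a log2 difference of -0.18. Bmp7 had 1070 and 718 over the body, then 1080 and 674. The Nodal promoter, at the 46.1st percentile of H3K36me2 in untreated cells, had 437 and 264, then 359 and 167, a difference of -0.47 that was also less than the standard error. The standard error was the same for all members, 0.51 over bodies and 0.57 at promoters, since limma pooled the spread over all genes. Relative to each library's mean, the Bmp5 promoter difference was 0.87 (SE 0.19, limma adjusted p = 0.325) and its body difference 0.52 (SE 0.096, limma adjusted p = 0.264), while the Nodal promoter stood at -0.67 (SE 0.19, limma adjusted p = 0.345). The median over all bodies moved from 0.07 to -0.13 between the scales.

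**Figure D5:**
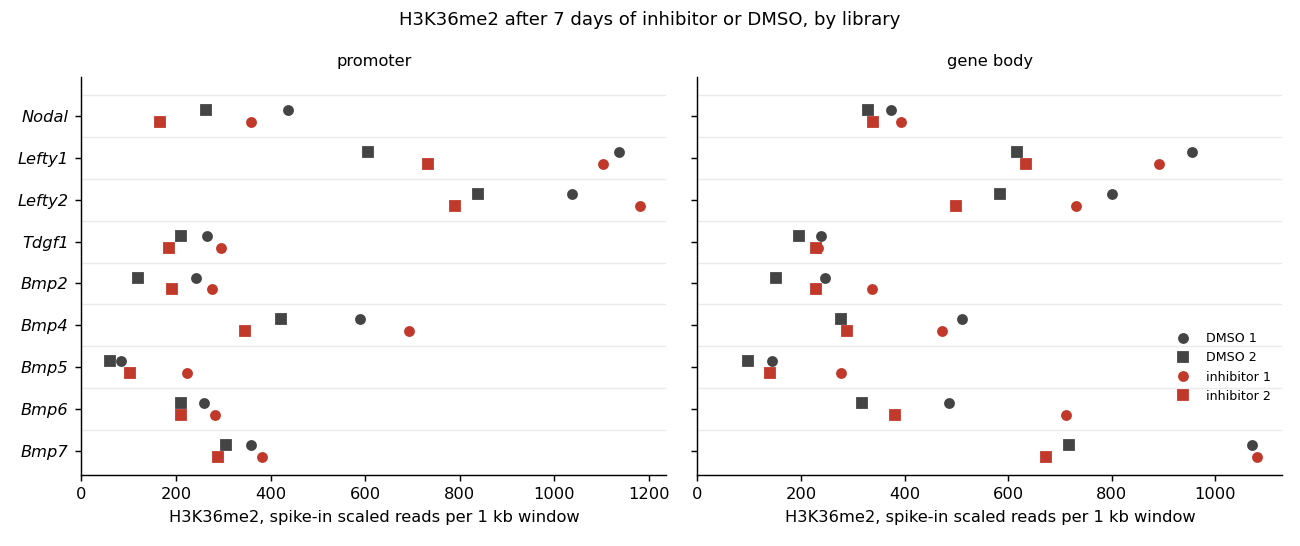
H3K36me2 as spike-in scaled reads per window at the promoter (left) and over the body (right) of the 9 genes in each DMSO (grey) and inhibitor (red) library. Only the Bmp5 promoter has both inhibitor libraries above both DMSO libraries, and circles (library 1) lie right of squares (library 2) in each arm at every gene.

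Other genes of the pathway were read from 6 lists. H3K27me3 fell over the bodies of 11 of 11 receptors, 22 of 22 other TGF-beta family ligands, 14 of 14 extracellular antagonists, 12 of 12 SMADs and nuclear partners, 13 of 13 known targets and 7 of 7 processing enzymes and co-receptors by limma, and 0 rose. As 99.9% of all bodies fell, these counts are those of the genome. H3K36me2 changed over 0 bodies in each list. On the relative scale the bodies called higher or lower by limma were 5 and 0 among receptors, 7 and 0 among SMADs and partners, 4 and 2 among other ligands, 2 and 3 among antagonists, 1 and 4 among targets and 1 and 0 among processing genes, where 36.5% of all bodies were higher and 9.33% lower.

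In untreated cells the median promoter H3K27me3 was 3.88 for the 9 genes, 6.93 for 10 targets with a start site, 6.47 for 9 antagonists, 4.37 for 15 other ligands, 4.24 for 5 processing genes, 1.04 for 7 SMADs and partners and 0.937 for 11 receptors, beside 0.477 for all. The value for the 9 genes was 1.85 when the other gene end was taken as the start of Lefty1, Lefty2, Bmp2 and Bmp7. The differences between lists were not tested. An H3K27me3 peak covered the promoter of 9 of 10 targets, 7 of 9 antagonists, 12 of 15 other ligands, 4 of 5 processing genes, 2 of 7 SMADs and 4 of 11 receptors, against 30.6% of all promoters, a share to which the SMADs and receptors were near.

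Among targets the highest promoters were T (brachyury, a mesoderm factor), at 12.1, and Lhx1, a head organizer factor, at 11.9, and the lowest was Id4 at 0.609. Among antagonists they were Nbl1 at 15.4 and Grem1 at 10.6, both binders of BMPs, with Dand5, an antagonist of Nodal, lowest at 0.419. Among other ligands they were Gdf10 at 13.8 and Bmp8b at 13.3, with Bmp15, a ligand of the oocyte, lowest at 0.853. Among SMADs and partners they were Smad9 at 11.3 and Smad3 at 1.52, with the corepressor gene Tgif1 lowest at 0.121. Among receptors they were Acvr1c, a Nodal receptor, at 9.71 and 10.1 and Tgfbr2 at 5.41 and 4.76 in the 2 libraries, with the BMP receptor gene Bmpr1a lowest at 0 and 0.141. Among processing genes they were Rgmb at 5.96 and Furin, a protease that cleaves ligand precursors, at 5.74, with the related protease gene Pcsk6 lowest at 1.44. After the inhibitor the mean relative promoter level of these leading genes ranged widely. It was 53.8 at T, 55.2 at Lhx1, 42.7 at Gdf10, 32.8 at Grem1, 23.7 at Nbl1 and 13.3 at Acvr1c, beside 66.8 at Bmp6. It was 11.4 at Bmp8b, 3.06 at Smad9, 2.85 at Tgfbr2, 2.40 at Smad3, 2.25 at Furin and 2.21 at Rgmb, beside 2.99 at Bmp7. The median over all promoters after the inhibitor was 1.81.

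For each member, the 2 genes nearest over the same 30 untreated values, outside its own surroundings, lay at distances of 1.34 to 2.70, against median distances of 8.15 to 10.6 over up to 15972 genes. They were Gemin7 and Oard1 for Nodal, Cep55 and Rad23b for Tdgf1, Mrgprh and Slc1a7 for Lefty1, Epb41l1 and Ly6g6c for Lefty2, Tent5a and Nr4a3 for Bmp2, Shisa2 and Rnf144b for Bmp4, Abca8a and Caps2 for Bmp5, Tmod1 and Grip1 for Bmp6, and Crtac1 and Mmp15 for Bmp7. The promoter H3K27me3 of Tmod1 was 10.9 and that of Grip1 7.46, both below Bmp6. Bmp5 was nearest to Bmp2 among the members, at 8.16, and Bmp6 to Bmp7, at 5.41.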

How the data were processed

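The series measured 5 histone marks by ChIP-seq in 9 groups of 2 libraries. Per the submitters' processing notes, Trim Galore 0.4.2, Bowtie2 2.2.6.2 and SICER were used with the builds mm10 and dm3; their settings are not given in the sources used here. The tracks were deposited as log2(1 + reads × a factor), per library, in windows of 1000 bp every 500 bp. Whole read numbers were recovered from them for 100% of windows at a tolerance of 0.02. In the 8 spike-in libraries the factor, 0.099 to 11.1, was taken as the authors' spike-in factor, and how it was derived is not stated. The authors' 4 deposited peak lists, 1 per mark over replicates, give a score per peak, used here only to rank peaks within a list.

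From the tracks, region means were taken over windows whose centre lies in the region, and divided by the library's mean where a relative level is given. limma 3.58.1 (R 4.3.3) was fitted to log2(mean scaled reads + 1) for all genes with at least 10 reads over 4 libraries, with Benjamini-Hochberg adjustment and a threshold of 0.05. Other calculations used Python 3.11.15. The recovery of reads and the limma step were tested on simulated data. Intervals from reads cover counting error only. The members and gene lists were chosen with earlier results of these data known. All 9 members are named. In each pathway list the 2 genes with the highest and the 1 with the lowest untreated promoter H3K27me3 are named, and for likeness the 2 nearest genes by Euclidean distance over log2(relative level + 0.1). Alternatives covered scaling, pseudocount, filter, limma-voom, variance trend, a replicate block, region width and leaving out each library; the other gene end as start for 4 genes was added after seeing the data. Genes on chromosomes Y and M were left out.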

Additional observations from a re-analysis of the deposited data

How the results depend on the processing

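Of the values fitted for H3K27me3, 13 of 329 reversed their direction under the alternatives, and for H3K36me2 4 of 100. Changes in the side of the threshold are not counted, since some alternatives leave 1 library in an arm. Of the untreated levels, 22 of 107 moved by more than the spread between replicates. The 107 include each replicate taken alone, which lies within that spread by construction and could not move. Of the values that answer a comparison 8 of 93 moved. The 93 include numbers of members called with 1 library left out, from which no call is drawn. Scaling to library totals instead of the spike-in left 0 members called at promoters, 1 over bodies and 4 in flanks for H3K27me3. It reversed the log2 difference at promoters to 1.71 for Nodal, 0.89 for Bmp2, 0.23 for Bmp5 and 1.48 for Bmp6, over bodies to 2.29 for Nodal, 2.38 for Tdgf1, 0.63 for Bmp2 and 0.10 for Bmp5, and in flanks to 2.89 for Nodal, 0.24 for Lefty2, 2.30 for Tdgf1 and 0.65 for Bmp6; that scaling removes the shift of the whole genome by construction. With each library left out in turn, 1 arm held 1 library, so only the sizes of the differences are given for those fits. Across these fits the Nodal promoter difference ranged from -3.45 to 0.22 for H3K27me3 and from -1.02 to 0.082 for H3K36me2. For H3K36me2 over bodies the range was -0.45 to 0.094 at Lefty2 and -0.039 to 0.86 at Bmp6. With 1 library left out, the members' median log2 difference in relative body level ranged from -0.16 to -0.10 for H3K27me3. For H3K36me2 that median ranged from -0.32 to 0.15.

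The untreated members' median promoter H3K27me3 was 4.55 in replicate 1 alone and 1.85 with the other gene end as start. With the replicate block, H3K36me2 was called at 1 member body (Bmp5, limma adjusted p = 0.00909) and 2 member flanks (Bmp2, 5.11e-06, and Bmp5, 1.17e-05), and over all genes at 1921 bodies and 3694 flanks, against 69 and 0 without it. Same-numbered libraries deviated together with r = 0.15, 0.45 and 0.55 for H3K36me2 at promoters, bodies and flanks and 0.03, 0.11 and 0.11 for H3K27me3, but with 2 pairs the numbers cannot be shown to pair the samples. With all libraries kept, H3K36me2 calls over all genes ranged from 0 to 82 at promoters (58 in the report's fit), and without the block from 0 to 81 over bodies. The H3K27me3 inhibitor libraries, with 991909 and 1777232 reads, limit what can be told of promoters with few reads. The cause of the other changes was not tested.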
